A study of Mus musculus with 48 samples.

Results

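The 10 genes described here lie on mouse chromosome 11, in or beside a 112 kb congenic segment. In map order they are Tbc1d9b, Sqstm1, Ltc4s, Maml1, Canx, Rufy1, Adamts2, Zfp354c, Zfp879 and Zfp354a. They were chosen by symbol among the 23420 genes of the deposited gene table, and their exons were taken by Ensembl identifier from the exon table, where they have 189 of 368092 exon bins. Each bin is an exonic segment shared by a single set of annotated transcripts. Striatum, the forebrain input nucleus of the basal ganglia, was collected from 8 mice labelled as 112kb congenic and from 8 C57BL/6J wild-type littermates. Each genotype had 4 males and 4 females, all aged about 50 days, and the tissue was 3 mm punches of both hemispheres pooled per mouse. In published work on this line the segment is DBA/2J sequence on a C57BL/6J background and contains Hnrnph1 and Rufy1. Its borders and the zygosity of the mice are not given in the sources used here. Every library was run on 3 lanes, which were summed, so that n counts mice.

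As background, a congenic mouse carries a short stretch of another strain's chromosome. Variants in that stretch can act on the gene they lie in or on genes nearby, and a comparison gene by gene along the map shows whether neighbours of the segment differ in level or in exon use. The genes beside Hnrnph1 have unrelated jobs. They encode membrane traffic proteins (Tbc1d9b, Rufy1), a selective autophagy receptor (Sqstm1), an endoplasmic reticulum chaperone (Canx), a coactivator of Notch signalling (Maml1), a leukotriene enzyme (Ltc4s), a procollagen protease (Adamts2) and zinc finger proteins of the KRAB class (Zfp354c, Zfp879, Zfp354a). KRAB zinc finger proteins bind DNA and recruit silencing complexes, and their genes often stand in clusters of similar copies.

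The mice held 73125051 to 81994255 gene counts and 118458225 to 133151148 exon counts. Striatal identity was clear in every mouse: the projection neuron marker Ppp1r1b was at 1642 to 2231 CPM (counts scaled to the library total) in congenic mice and at 1651 to 2294 CPM in wild-type mice. The cortical marker Slc17a7, which a punch can include, varied from 20.7 to 186 CPM in congenic mice and from 49.5 to 177 CPM in wild-type mice. Wild-type mouse 8 had Xist in the range of the males but Ddx3y in the range of the other females. It is labelled female, yet its Xist level was 2.64 CPM, against 951 to 1549 CPM in the remaining females and 1.35 to 17.6 CPM in the males. Its level of the Y-linked Ddx3y was 0.0635 CPM, against 0.0124 to 1.01 CPM in the remaining females and 62.7 to 93.1 CPM in the males. The sex and interaction fold changes are therefore given with and without it, while CPM means by sex, genotype fold changes within females and the plot of them include it. In whole tissue, fewer cells of a type and less RNA per cell cannot be told apart.

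The 10 genes were expressed at very different levels. Per kilobase of annotated exon, Sqstm1 was highest at 116 ± 13.7 CPM per kb and Canx next at 84.4 ± 4.01 CPM per kb (SD over 16 mice). Tbc1d9b followed at 46.4 ± 3.87, Rufy1 at 13.9 ± 0.619, Zfp354c at 7.53 ± 0.355, Ltc4s at 4.00 ± 0.424, Zfp354a at 3.65 ± 0.354, Maml1 at 2.83 ± 0.258, Zfp879 at 1.75 ± 0.187 and Adamts2 at 0.810 ± 0.113 CPM per kb (SD over 16 mice). The ranges of neighbours in this order overlapped for Sqstm1 and Canx, for Ltc4s and Zfp354a, and for Zfp354a and Maml1. Ltc4s and Zfp354a were the least separated pair, with Ltc4s the higher in 13 of 16 mice. Among 15461 genes with a length, Sqstm1 stood above 97.8% and Adamts2 above 20.9%.

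No difference in level between congenic and wild-type mice was called for any of the 10 genes. Their log2 fold changes, congenic over wild-type, ran from -0.07 for Maml1 to 0.07 for Ltc4s, with 4 above 0 and 6 below. Their median was -0.02, beside 0.0015 over the 16716 genes tested. The groups overlapped for each of the 10. In edgeR's quasi-likelihood test 0 of 10 passed a Benjamini-Hochberg adjusted p of 0.05, all at an adjusted p of 0.9993, and 0 of 10 had an unadjusted p under 0.05. The background was the same: 0% of all genes passed and 1.53% had an unadjusted p under 0.05. DESeq2 and limma-voom also called 0 of the 10 and 0 of all genes, with 268 and 277 genes at an unadjusted p under 0.05. Exact two-sided permutation tests of the CPM values over 12870 splits of the mice gave p from 0.255 for Maml1 to 0.863 for Rufy1. The 95% intervals of 9 of the 10 genes lay within 0.25 of 0 on the log2 scale, as did those of 68.2% of all genes. The interval of Ltc4s reached 0.253. P-values set the genotype difference against the spread between these mice, which the labels describe as littermates without giving litters.

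**Figure D1:**
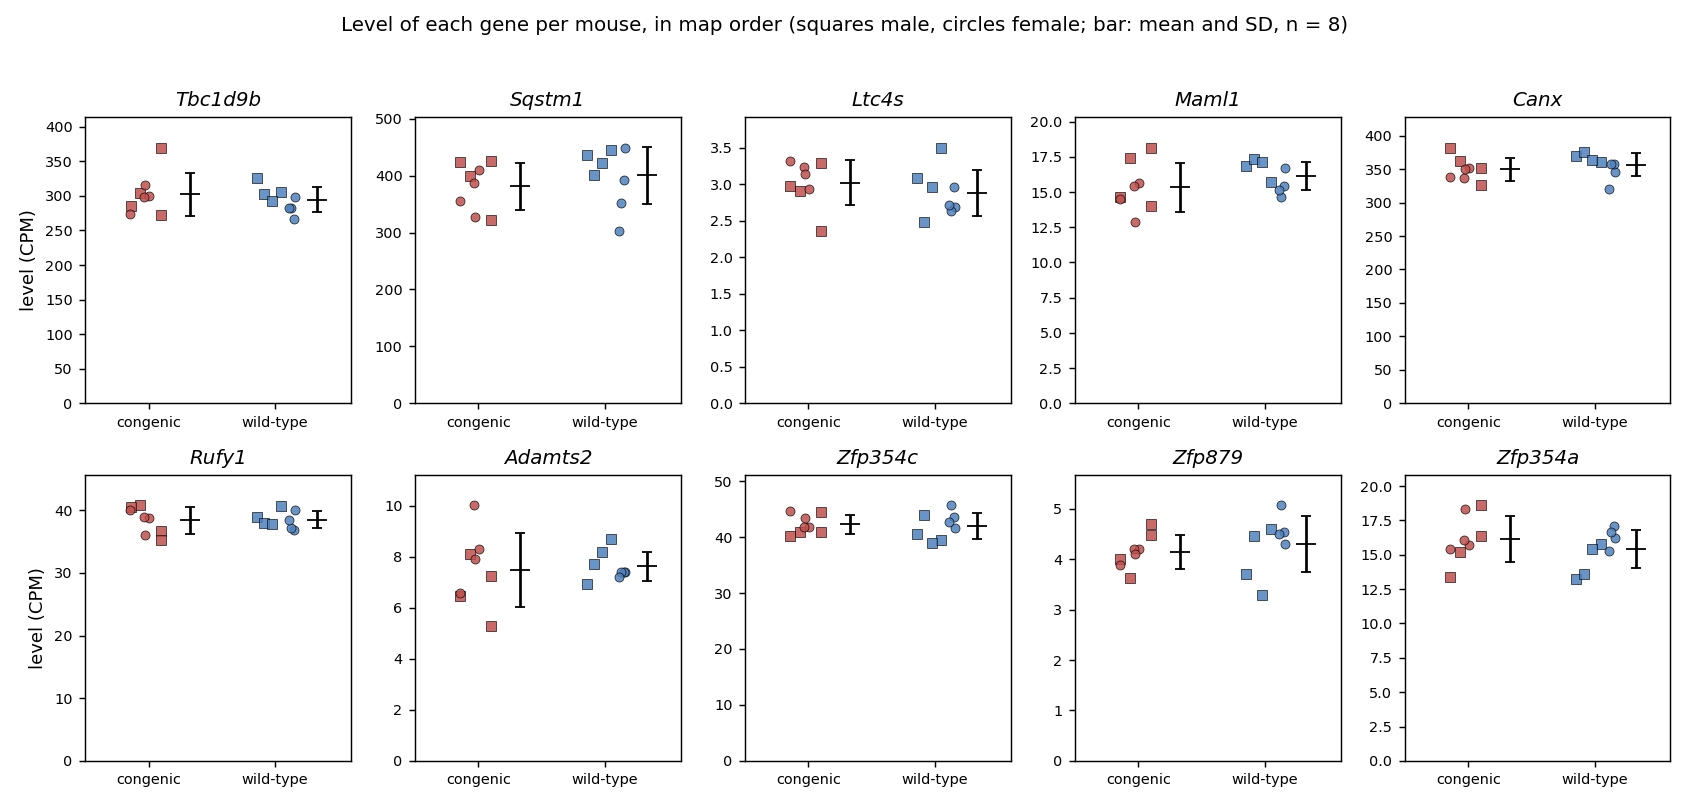
Level of the 10 genes in each mouse, in CPM on a linear axis that starts at 0, with congenic mice left and wild-type mice right (squares, males; circles, females; bars, mean and SD, n = 8). The clouds overlap in every panel, and congenic mouse 2 lies apart as the highest Tbc1d9b value, 370 CPM.

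Tbc1d9b encodes a GTPase-activating protein for Rab GTPases, the switches of membrane traffic. It lies at chr11:49944898-49986287 on the plus strand (NCBIM37, as all coordinates here), 204 kb from the block of Hnrnph1 and Rufy1. Its level was 272, 299 and 370 CPM in congenic mice (lowest, median, highest) and 267, 295 and 326 CPM in wild-type mice. The groups overlapped, and congenic mouse 2 stood alone at the top, with the other congenic mice at 272 to 315 CPM. The log2 fold change was 0.04 (SE 0.05), and it was -0.0039 without congenic mouse 2.

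Sqstm1, which encodes the receptor that links ubiquitinated cargo to autophagosomes, lies at chr11:50012868-50024329 on the minus strand. It had 321, 393 and 425 CPM in congenic mice and 303, 412 and 449 CPM in wild-type mice (lowest, median, highest). Its lowest mice were congenic mouse 2 and wild-type mouse 8, and both groups spread widely. Its genotype fold change (log2) was -0.07 (SE 0.07), with -0.02 without congenic mouse 2 and -0.11 without wild-type mouse 8. Sqstm1 varied between mice more than genes of like level, with a biological coefficient of variation of 10.5%, above that of 92.0% of the 200 genes nearest in level.

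Ltc4s encodes leukotriene C4 synthase, which joins glutathione to leukotriene A4, and lies at chr11:50049971-50052118 on the minus strand. It was rare, with 179 to 274 counts per mouse. Levels were 2.36, 3.06 and 3.31 CPM in congenic mice and 2.49, 2.84 and 3.50 CPM in wild-type mice. Both ranges covered nearly the same span. The log2 fold change was 0.07 (SE 0.09).

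Maml1 encodes a Mastermind-like coactivator that completes the Notch transcription complex, and lies at chr11:50069136-50105838 on the minus strand. Levels were 12.9, 15.1 and 18.1 CPM in congenic mice and 14.7, 16.2 and 17.3 CPM in wild-type mice. The congenic mice held both the lowest and the highest value. In edgeR the log2 fold change was -0.07 (SE 0.06), with an interval of -0.19 to 0.05.

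Canx encodes calnexin, the membrane lectin that holds glycoproteins in the endoplasmic reticulum until they fold, and lies at chr11:50107969-50139175 on the minus strand. Among the tested genes it is the closest to Hnrnph1 on that side, 51.3 kb away. Levels were 327, 351 and 382 CPM in congenic mice and 320, 360 and 376 CPM in wild-type mice. The spread was small, 350 ± 16.9 CPM for the congenic group, against 357 ± 17.1 CPM for the wild-type group (SD, n = 8 each), and the log2 fold change was -0.03 (SE 0.04).

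Rufy1, in the segment itself, encodes a RUN and FYVE domain protein that works with Rab4 and Rab14 on early endosomes. It lies at chr11:50202788-50244627 on the minus strand. Its levels were 35.3, 38.9 and 40.8 CPM in congenic mice and 36.9, 38.2 and 40.7 CPM in wild-type mice. It was among the steadiest genes of the group, with a coefficient of variation of 5.71%, and its log2 fold change was -0.0045 (SE 0.04). The interval of -0.08 to 0.08 corresponds to 0.943 to 1.05 times the wild-type level. Hnrnph1, the splicing regulator that shares the segment, gave 0.01 (SE 0.04).

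Adamts2 encodes the protease that removes the amino-terminal propeptide of fibrillar procollagens, and lies at chr11:50415586-50621075 on the plus strand. Levels were 5.29, 7.58 and 10.02 CPM in congenic mice and 6.96, 7.42 and 8.70 CPM in wild-type mice. The congenic mice took both ends, with congenic mouse 2 lowest and congenic mouse 6 highest, and their SD was 1.44 CPM, beside 0.563 CPM in wild-type mice (n = 8 each). The log2 fold change was -0.03 (SE 0.10), and it turned to 0.03 without congenic mouse 2.

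Zfp354c, Zfp879 and Zfp354a stand 380, 401 and 628 kb from the block of Hnrnph1 and Rufy1, in a cluster of KRAB zinc finger genes. Zfp354c (chr11:50624588-50641226, minus strand) had 40.1, 41.8 and 44.7 CPM in congenic mice and 39.0, 42.1 and 45.7 CPM in wild-type mice. Its log2 fold change was 0.01 (SE 0.04) with the smallest coefficient of variation of the 10 genes, 5.45%. Zfp879 (chr11:50645533-50655054, minus strand) had 3.62, 4.15 and 4.71 CPM in congenic mice and 3.30, 4.47 and 5.06 CPM in wild-type mice, and a log2 fold change of -0.05 (SE 0.08). Zfp354a (chr11:50872759-50886301, plus strand) had 13.4, 15.9 and 18.6 CPM in congenic mice and 13.3, 15.6 and 17.1 CPM in wild-type mice, and a log2 fold change of 0.07 (SE 0.06). The groups overlapped over most of their ranges in all 3 genes.

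The copies in this cluster share sequence, which bears on the counts. The 127-base coding exon that encodes the KRAB A box, the part that recruits the silencing machinery, is shown as an example of that likeness. It is printed 5′ to 3′ on the transcribed strand for the pair of adjacent genes, from NCBIM37, at chr11:50631311-50631437 for Zfp354c and chr11:50651912-50652038 for Zfp879, with capitals in Zfp879 where its base is not that of Zfp354c.
Zfp354c: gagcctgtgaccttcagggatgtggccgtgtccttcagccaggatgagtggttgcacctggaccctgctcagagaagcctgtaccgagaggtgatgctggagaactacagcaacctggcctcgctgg
Zfp879: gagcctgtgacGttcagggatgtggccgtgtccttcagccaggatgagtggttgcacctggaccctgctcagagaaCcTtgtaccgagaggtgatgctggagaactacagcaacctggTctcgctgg
They differ at 4 of 127 bases (96.9% identity). Zfp354a and its neighbour Zfp354b differ at 2 (98.4%), and identity between these pairs was 78.7% to 81.9%. Over whole transcripts, 11.8% of the 50-base windows of Zfp354a were also in Zfp354b. The level of Zfp354a may therefore include reads of that gene or lack some of its own. How reads that match both genes were counted is not given. Zfp354c and Zfp879 shared 15 such windows, which are 0.284% of those of Zfp354c and 0.61% of those of Zfp879. The other members shared none, except 13 windows of Adamts2.

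No gene of a wider stretch of chromosome 11 was called. In the window from 1 Mb below the lowest to 1 Mb above the highest of their starts, 69 genes were in the table and 44 were tested. Of the 25 that were too low to test, 17 were olfactory receptor genes. Among the 44, 0 passed and 0 had an unadjusted p under 0.05, beside 0% and 1.53% of all genes tested. Of the 44, 23 were positive, and the median log2 fold change was 0.0020. The 5 genes of smallest p outside the group were Gfpt2, an enzyme that feeds the hexosamine pathway (-0.12, SE 0.09), Nhp2, a protein of box H/ACA snoRNPs (0.06, SE 0.04), Rasgef1c (-0.08, SE 0.06), the olfactory receptor gene Olfr1392 (-0.26, SE 0.20) and Phf15 (-0.06, SE 0.05). The edgeR adjusted p was 0.9993 for all 5. Gfpt2 was at 4.44 ± 0.5997 CPM for the congenic group, against 4.85 ± 0.664 CPM for the wild-type group (SD, n = 8 each). The cluster genes next to the 3 zinc finger members were not called, with log2 fold changes of 0.0019 for Zfp454, 0.04 for Zfp2 and 0.0022 for Zfp354b.

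**Figure D2:**
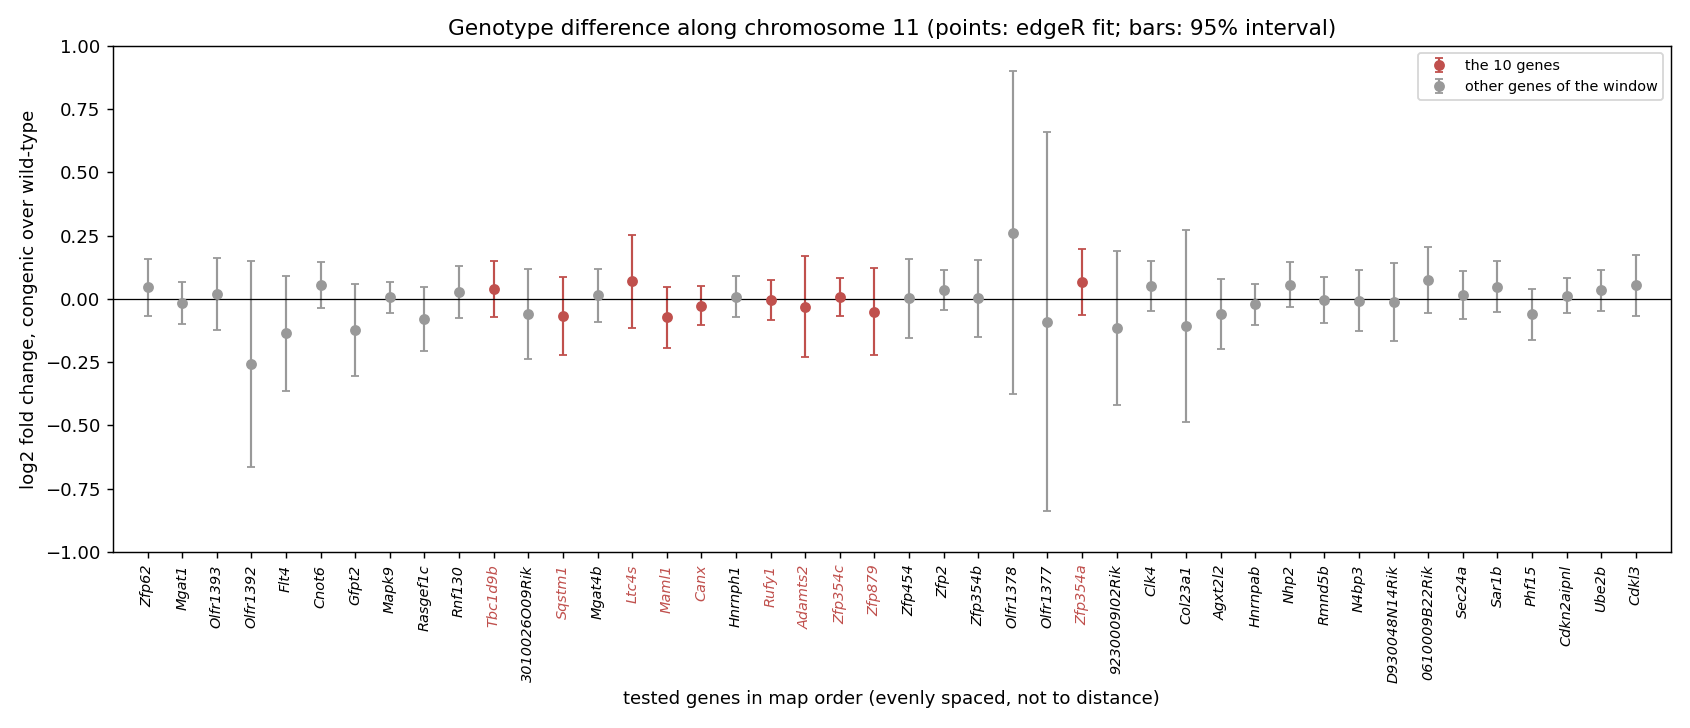
Log2 fold change, congenic over wild-type, of the 44 tested genes of the window in map order (points, edgeR estimate; bars, 95% interval; red, the 10 genes; grey, other genes). The estimates stay near 0 along the window, and the widest bars belong to olfactory receptor genes of very low level.

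No gene of 8 chosen lists, drawn from the pathways in which these genes work, was called. Of 146 names in the lists, 138 genes were tested: 0 passed over all genes in either direction and 0 had an unadjusted p under 0.05. Among all genes tested, 0% passed and 1.53% had an unadjusted p under 0.05. Of the 138, 57 were positive and 81 negative, beside 8539 and 8177 of all 16716 genes tested. Whether a list leaned to either side was not tested. Among 22 tested endosomal partners of Rufy1, 14 were positive and the median log2 fold change was 0.01. Appl2, a Rab5 effector, was at 95.2 ± 4.24 CPM for the congenic group, against 91.1 ± 2.68 CPM for the wild-type group (SD, n = 8 each), and Rab4a, a GTPase that Rufy1 binds, at 30.2 ± 1.28 CPM for the congenic group, against 29.2 ± 1.10 CPM for the wild-type group (SD, n = 8 each). The 12 TBC-domain Rab GTPase-activating proteins had 9 negative members and a median of -0.02. Tbc1d1 had -0.10 (SE 0.06) and Tbc1d9 -0.06 (SE 0.05). The 23 autophagy and oxidative stress partners of Sqstm1 had 13 positive members and a median of 0.0039. Atg5, part of the complex that attaches LC3 to autophagosome lipid, had 0.10 (SE 0.05) and Srxn1, a target of the factor NRF2, -0.04 (SE 0.03).

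Of the 16 tested genes of the calnexin cycle, 11 were negative and the median was -0.02. Uggt1, the folding sensor that returns glycoproteins to calnexin, was at 74.2 ± 4.71 CPM for the congenic group, against 78.5 ± 4.27 CPM for the wild-type group (SD, n = 8 each), and glucosidase subunit Ganab had -0.06 (SE 0.05). The Notch list, 26 genes around Maml1, had 20 negative members and a median of -0.03. Nrarp, a feedback inhibitor of Notch signalling, had 0.11 (SE 0.06) and the target Heyl -0.14 (SE 0.11). The leukotriene list had 11 tested genes, 6 of them positive, and a median of 0.01. Lta4h, which makes leukotriene B4, had 0.06 (SE 0.04) and the receptor Cysltr1 0.19 (SE 0.15). The procollagen list had 14 genes, 10 of them negative, and a median of -0.05. Adamts14 had -0.45 (SE 0.27) and Col3a1 -0.18 (SE 0.13). The 14 genes of KRAB silencing had 8 negative members and a median of -0.01. Morc3 had 0.07 (SE 0.04) and the heterochromatin protein gene Cbx1 -0.07 (SE 0.05). None of these named genes passed in edgeR (adjusted p = 0.9993 for each).

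No difference between the sexes was called for the 10 genes. In edgeR, 0 of 10 passed between males and females, where 23 of 16716 genes did (0.138%), and 1 of 10 had an unadjusted p under 0.05, where 14.7% of all genes did. That gene was Maml1, at 16.4 ± 1.45 CPM in males and 15.1 ± 1.1202 CPM in females (SD, n = 8 each), a log2 fold change, male over female, of 0.12 (SE 0.06) with an adjusted p of 0.324. Sqstm1 was at 409 ± 38.8 CPM in males and 372 ± 46.8 CPM in females (SD, n = 8 each), and its log2 fold change was 0.14 (SE 0.07) with all mice and 0.09 without wild-type mouse 8. Zfp354c gave -0.07 (SE 0.04), and -0.07 without wild-type mouse 8. Zfp354a gave -0.11 (SE 0.06), and -0.12 without that mouse. Without wild-type mouse 8, 0 of 10 passed as well, and Maml1 had 0.12 with an adjusted p of 0.491.

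The test of the interaction of genotype with sex called 0 of 10 members and 0% of all genes (0 of 16716, with 4.18% at an unadjusted p under 0.05). Adamts2 was the only member at that level. It averaged 6.78 ± 1.201 CPM in congenic males, against 7.89 ± 0.740 CPM in wild-type males, and 8.20 ± 1.42 CPM in congenic females, against 7.36 ± 0.0928 CPM in wild-type females (SD, n = 4 each). The log2 fold change of genotype was -0.22 (SE 0.12) in males and 0.15 (SE 0.12) in females, a difference of -0.37 (SE 0.18) with an adjusted p of 0.967 in edgeR. That difference was -0.36 without wild-type mouse 8, -0.26 without congenic mouse 2 and -0.25 without congenic mouse 6. Ltc4s had an interaction of -0.26 (SE 0.17), and -0.25 without wild-type mouse 8. Zfp879 had one of 0.23 (SE 0.16), and 0.25 without that mouse. The other members ranged from -0.10 to 0.12, and from -0.06 to 0.16 without that mouse.

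**Figure D3:**
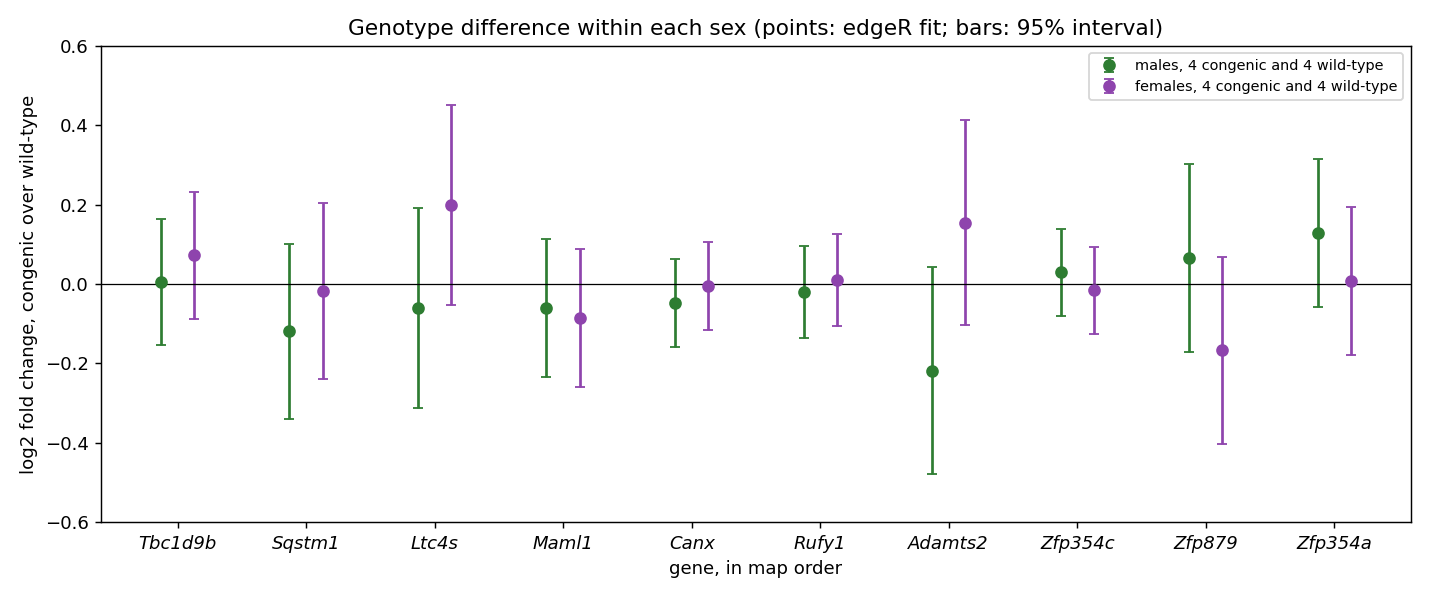
Log2 fold change of genotype, congenic over wild-type, within males and within females for the 10 genes in map order (points, edgeR estimate; bars, 95% interval; 4 mice per genotype and sex). Every bar crosses 0, and the estimates for Adamts2 fall on opposite sides, -0.22 in males and 0.15 in females.

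No pair of the 10 genes was called for levels that moved together over the mice. After the mean of each genotype and sex was removed, 0 of 45 pairs passed an adjusted p of 0.05 by permutation, for Pearson or for Spearman. The strongest pair was Rufy1 and Zfp354a with r = -0.65 and rho = -0.56 over 16 mice (permutation p = 0.00641 and 0.0264; adjusted p = 0.171 and 0.24), and r was -0.39 when congenic mouse 2 and congenic mouse 7, the pair farthest from the median of Rufy1, were left out. Sqstm1 and Maml1 gave r = 0.61 and rho = 0.56 (permutation p = 0.0128 and 0.0267; adjusted p = 0.171 and 0.24), with 0.54 without congenic mouse 2 and wild-type mouse 8. Sqstm1 and Zfp354c gave r = -0.59 and rho = -0.63 (permutation p = 0.0152 and 0.0101; adjusted p = 0.171 and 0.24), with -0.68 without the same mice. The adjacent zinc finger genes Zfp354c and Zfp879 gave r = 0.51 and rho = 0.39 (permutation p = 0.0463 and 0.142; adjusted p = 0.222 and 0.639), with 0.26 without congenic mouse 2 and wild-type mouse 4. Leaving out a single mouse brought 1 pair past the threshold in 2 of 16 cases: Rufy1 with Zfp354a (r = -0.83, permutation adjusted p = 0.0054) without wild-type mouse 3, and Sqstm1 with Zfp354c (r = -0.81, permutation adjusted p = 0.0211) without wild-type mouse 8.

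Relations to cell type markers were of similar size and also did not pass. Of 80 relations between a member and the score of a marker list (8 lists), 0 passed. Tbc1d9b went with the microglial score (r = 0.71 and rho = 0.71, permutation p = 0.00226 and 0.0027, adjusted p = 0.117 and 0.0925) and against the cortical excitatory score (r = -0.69 and rho = -0.53, permutation p = 0.00293 and 0.0367, adjusted p = 0.117 and 0.366). Without the mice farthest from the median of each score, r was 0.68 (congenic mice 7 and 8 left out) and -0.69 (congenic mouse 7 and wild-type mouse 5 left out). Congenic mouse 2, which stood alone at the top for Tbc1d9b, stayed in both, so they do not show the relations without it. Sqstm1 went with the projection neuron score (r = 0.64 and rho = 0.72, permutation p = 0.00789 and 0.00228, adjusted p = 0.126 and 0.0925), with r = 0.65 without congenic mouse 8 and wild-type mouse 8. Adamts2 went with the same score (r = 0.64 and rho = 0.62, permutation p = 0.00716 and 0.0124, adjusted p = 0.126 and 0.247), with r = 0.54 without the same mice. Zfp354a went against the astrocyte score (r = -0.65 and rho = -0.70, permutation p = 0.00677 and 0.00347, adjusted p = 0.126 and 0.0925), with r = -0.49 without congenic mouse 5 and wild-type mouse 6. The part of cell makeup in the levels of these genes was not tested beyond these relations. The 10 cortical markers were all detected, and their summed level was 62.7 to 284 CPM in congenic mice, against 104 to 274 CPM in wild-type mice. Their score, a centred mean of log2 CPM, averaged -0.209 in congenic and 0.209 in wild-type mice, with overlapping ranges. That gap was the largest of the 8 lists. With their score as a covariate, the genotype fold change of Tbc1d9b was -0.03, of Rufy1 0.02 and of Zfp354c -0.01, and 0 of 10 members passed.

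By the likeness of their levels over 16 mice, the genes nearest to Rufy1 among 16715 were Tpst2 (r = 0.85), Azi1 (r = 0.85) and Vgll3 (r = 0.84), and those nearest to Zfp879 were Serpina10 (r = 0.85), Kcnh5 (r = 0.81) and Cyp2j8 (r = 0.81). Of these, Vgll3, Serpina10 and Cyp2j8 averaged 0.150, 0.198 and 0.109 CPM, so that few counts lie behind their values.

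Exon use was compared next, because the title of the series names splicing. No member was called. Of the 189 bins, 169 were tested, and 0 of the 10 genes passed by the Simes method in diffSpliceDGE of edgeR, which called 1 of 14875 genes (0.00672%). A total of 4 of 169 bins (2.37%) had an unadjusted p under 0.05, where 1.03% of all bins did, and their adjusted p was 1. The fold change of use sets a bin against the other bins of its gene, and its 95% interval, as implied by the p-value, lay within 0.5 of 0 on the log2 scale for 139 of 169 bins (82.2%). The 4 bins were in Adamts2, Zfp354c and Zfp879. In Tbc1d9b, Sqstm1, Ltc4s, Canx, Rufy1, Maml1 and Zfp354a, 0 bins reached that level. Among bins that averaged at least 50 counts, the change of largest size in the highly expressed genes was 0.12 in Tbc1d9b (bin 36), 0.08 in Sqstm1 (bin 23) and -0.07 in Canx (bin 6, also its bin of smallest p). It was 0.04 in Ltc4s (bin 8), -0.05 in Maml1 (bin 7), 0.20 in Adamts2 (bin 21), -0.08 in Zfp354c (bin 3), 0.01 in Zfp879 (bin 3) and -0.14 in Zfp354a (bin 8). The bins of smallest p in the genes with none at that level were mostly sparse. Tbc1d9b bin 17 (6 to 33 counts per mouse) had -0.45 (SE 0.27), Sqstm1 bin 14 (11 to 34 counts) -0.31 (SE 0.29) and Ltc4s bin 2 (16 to 39 counts) -0.09 (SE 0.21). Maml1 bin 8 is 25 non-coding bases at the start of the gene. It had 4 to 12 counts in congenic mice and 7 to 18 counts in wild-type mice. Its fold change was -0.52 (SE 0.29) and its exact permutation p for the shares was 0.051, not adjusted for the bins. Zfp354a bin 11 (5 to 23 counts) had -0.44 (SE 0.28), and the adjusted p of each of these bins was 1 in edgeR.

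**Figure D4:**
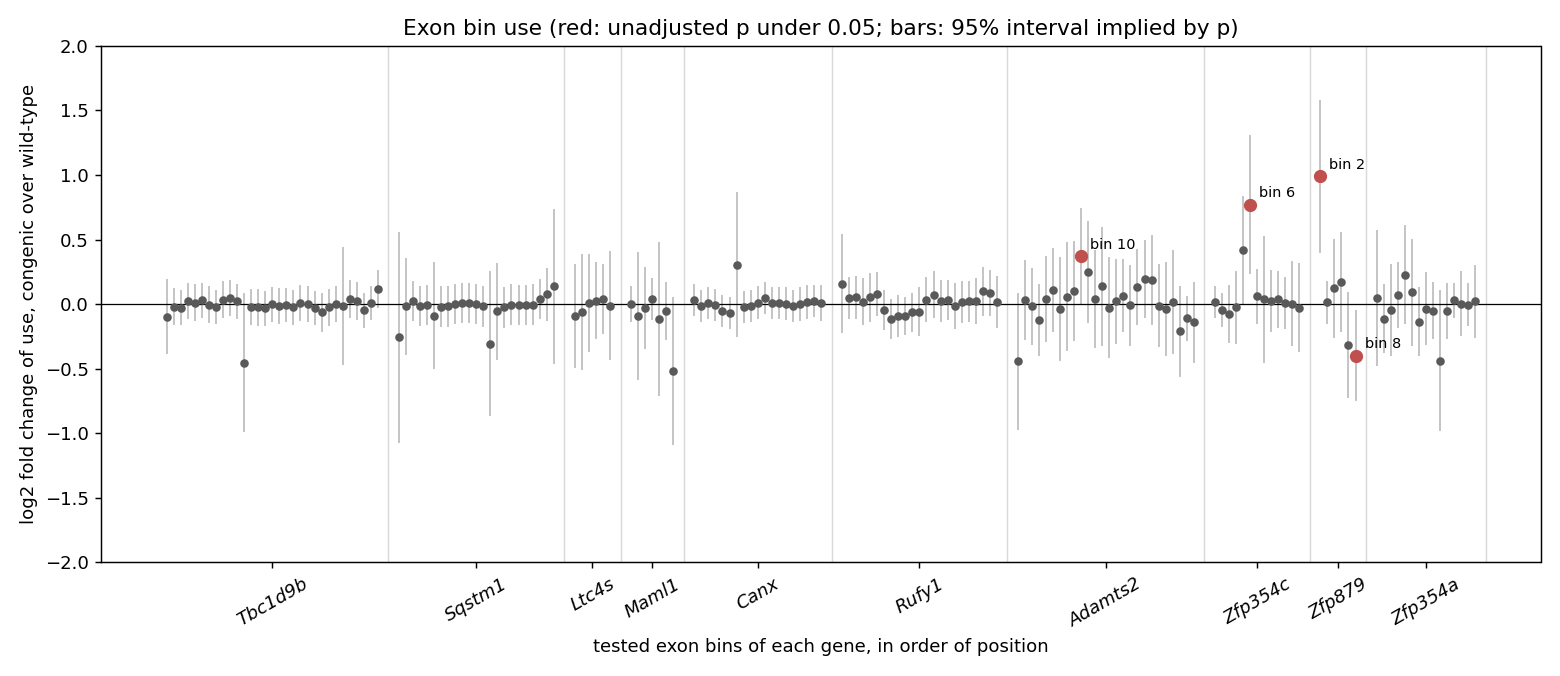
Log2 fold change of exon bin use, congenic over wild-type, for the 169 tested bins of the 10 genes in map order, bins in order of position (points, edgeR estimate; bars, 95% interval implied by p; red, unadjusted p under 0.05). The 4 red bins, 2.37% of those tested, lie in Adamts2, Zfp354c and Zfp879, while the tested bins ran from -0.45 to 0.12 in Tbc1d9b, from -0.31 to 0.14 in Sqstm1 and from -0.07 to 0.31 in Canx.

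The bin of smallest p in Rufy1 was bin 8, a coding exon of 120 bases at chr11:50211873-50211992 that is in 1 of 3 annotated transcripts. It is shown with 10 intron bases on each side in lower case and the exon in capitals, because it is the bin of smallest p in the member that lies in the segment.
Rufy1 bin 8: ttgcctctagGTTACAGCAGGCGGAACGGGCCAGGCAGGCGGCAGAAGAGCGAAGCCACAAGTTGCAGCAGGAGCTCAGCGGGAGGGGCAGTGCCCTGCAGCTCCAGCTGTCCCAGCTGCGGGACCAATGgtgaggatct
Its length is a multiple of 3 and 66.7% of its bases are G or C. It took 5.30%, 5.65% and 6.09% of the exon counts of Rufy1 in congenic mice and 5.72%, 6.18% and 6.37% in wild-type mice (lowest, median, highest). The means were 5.64 ± 0.269% for the congenic group, against 6.11 ± 0.231% for the wild-type group (SD, n = 8 each), with overlapping ranges. An exact two-sided permutation test of the shares gave p = 0.00326 over 12870 splits of the mice, not adjusted for the 169 bins from which the bin was picked. The edgeR fold change was -0.11 (SE 0.08), with an unadjusted p of 0.158 and an adjusted p of 1 in edgeR.

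Adamts2 bin 10, a coding exon of 133 bases at chr11:50590124-50590256, is shown in the same way, with the exon in capitals.
Adamts2 bin 10: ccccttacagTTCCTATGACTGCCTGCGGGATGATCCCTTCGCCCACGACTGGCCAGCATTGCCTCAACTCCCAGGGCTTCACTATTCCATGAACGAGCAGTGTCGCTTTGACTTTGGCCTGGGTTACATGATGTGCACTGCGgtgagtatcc
It took 2.54%, 3.14% and 3.39% of the exon counts of Adamts2 in congenic mice and 1.86%, 2.33% and 2.83% in wild-type mice (lowest, median, highest), from 26 to 52 counts per mouse. The congenic mice were higher on the whole, but the ranges overlapped. The fold change was 0.37 (SE 0.19) on the log2 scale with an adjusted p of 1 in edgeR, and an exact permutation test of the shares gave p = 0.00155, again unadjusted over the bins.

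Zfp354c bin 6 is a non-coding extension of 16 bases at chr11:50631295-50631310, which lengthens the KRAB A exon at its 3′ end in 1 annotated transcript. Its site is shown for 4 genes of the cluster, 12 exon bases, the 16 bases in capitals, and 12 further bases, 5′ to 3′ on the transcribed strand from NCBIM37. The stretches lie at chr11:50631283-50631322 for Zfp354c, chr11:50651884-50651923 for Zfp879, chr11:50742851-50742890 for Zfp354b (all minus strand) and chr11:50874477-50874516 for Zfp354a (plus strand).
Zfp354c: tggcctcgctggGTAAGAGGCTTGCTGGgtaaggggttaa
Zfp879: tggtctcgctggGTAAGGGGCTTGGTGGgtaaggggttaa
Zfp354b: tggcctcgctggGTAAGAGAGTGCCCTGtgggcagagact
Zfp354a: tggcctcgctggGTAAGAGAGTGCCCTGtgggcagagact
The letters GTAAG, a common start of introns, follow the exon in all 4 genes. They stand again 16 bases further on in Zfp354c and Zfp879 and are not repeated within the 40 bases of Zfp354a and Zfp354b. GTAAG directly follows 25.1% of 17902 internal exon ends annotated on chromosome 11, and 0.413% hold it there and again later in a stretch of the same length. None of the 4 stretches holds GTAAG on the other strand, which 1.98% of the chromosome 11 stretches do.

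The extension took few counts. Low counts were more often even than odd: in the gene table by lane, 62.0% of the values from 1 to 10 were even, with 31877 values of 2 and 15048 values of 1. Between the lanes of a mouse, gene counts varied 1.89 to 1.94 times as much as independent counts would. This was not measured for exon bins. Whether reads behind the sparse bins were counted in pairs was not tested, and counting error would then be larger than the counts imply. The extension had 10, 13, 15, 15, 17, 17, 18 and 25 counts in the 8 congenic mice and 2, 6, 7, 7, 9, 10, 14 and 22 counts in the 8 wild-type mice. Most congenic mice lay above most wild-type mice, and the highest wild-type value, 22 counts in wild-type mouse 1, lay above all congenic mice but 1. As a share of the gene, it was 0.259%, 0.419% and 0.665% in congenic mice and 0.0551%, 0.203% and 0.574% in wild-type mice (lowest, median, highest). On the log2 scale the fold change was 0.77 (SE 0.27) with an adjusted p of 1 in edgeR. The exact permutation test of the shares gave p = 0.0214, not adjusted for the bins from which the bin was picked. Without wild-type mouse 1 the fold change was 1.05, and without wild-type mouse 5, which had 2 counts, it was 0.62. Bin 5, an exon of 71 bases at chr11:50630791-50630861 that also occurs in 1 transcript, had 0.42 (SE 0.21), an adjusted p of 1 in edgeR and an exact permutation p of 0.085 (chosen after its value was seen). The KRAB A exon itself, bin 7, averaged 127 counts in congenic and 124 counts in wild-type mice.

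Zfp879 held 2 of the 4 bins, and its Simes p was smaller than that of all but 0.0471% of genes, with an adjusted p of 1 in edgeR. Bin 2 is a piece of 48 bases near the 3′ end of the gene, at chr11:50645537-50645584, in the untranslated region. It had 7, 7, 10, 14, 15, 15, 16 and 18 counts in congenic mice and 2, 4, 4, 5, 5, 10, 10 and 13 counts in wild-type mice. As a share, it was 1.70%, 3.66% and 4.58% in congenic mice and 0.562%, 1.30% and 3.21% in wild-type mice (lowest, median, highest). The congenic mice were mostly above the wild-type mice, with overlap in the middle. The log2 fold change was 0.99 (SE 0.30), with an interval of 0.40 to 1.58 and an adjusted p of 1 in edgeR. The exact permutation p for the shares was 0.00435, not adjusted for the bins from which the bin was picked. Leaving out any single mouse kept the fold change between 0.87 and 1.16.

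The other bin, bin 8, named after its value was seen, is the untranslated first exon of Zfp879, 177 bases at chr11:50654872-50655048. It took 6.62%, 7.91% and 8.97% of the gene's exon counts in congenic mice and 8.16%, 9.83% and 13.8% in wild-type mice (lowest, median, highest). The congenic mice were lower on the whole. Its genotype fold change (log2) was -0.40 (SE 0.18) with an adjusted p of 1 in edgeR. The exact permutation p was 0.00295, not adjusted for the bins from which the bin was picked. By lane the fold change was 0.02 with lane 3 alone, -0.87 with lane 4 alone and -0.30 with lane 5 alone. The large bin 3, 1889 bases with the zinc finger coding sequence, took 66.1 ± 2.06% for the congenic group, against 65.9 ± 3.61% for the wild-type group (SD, n = 8 each).

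**Figure D5:**
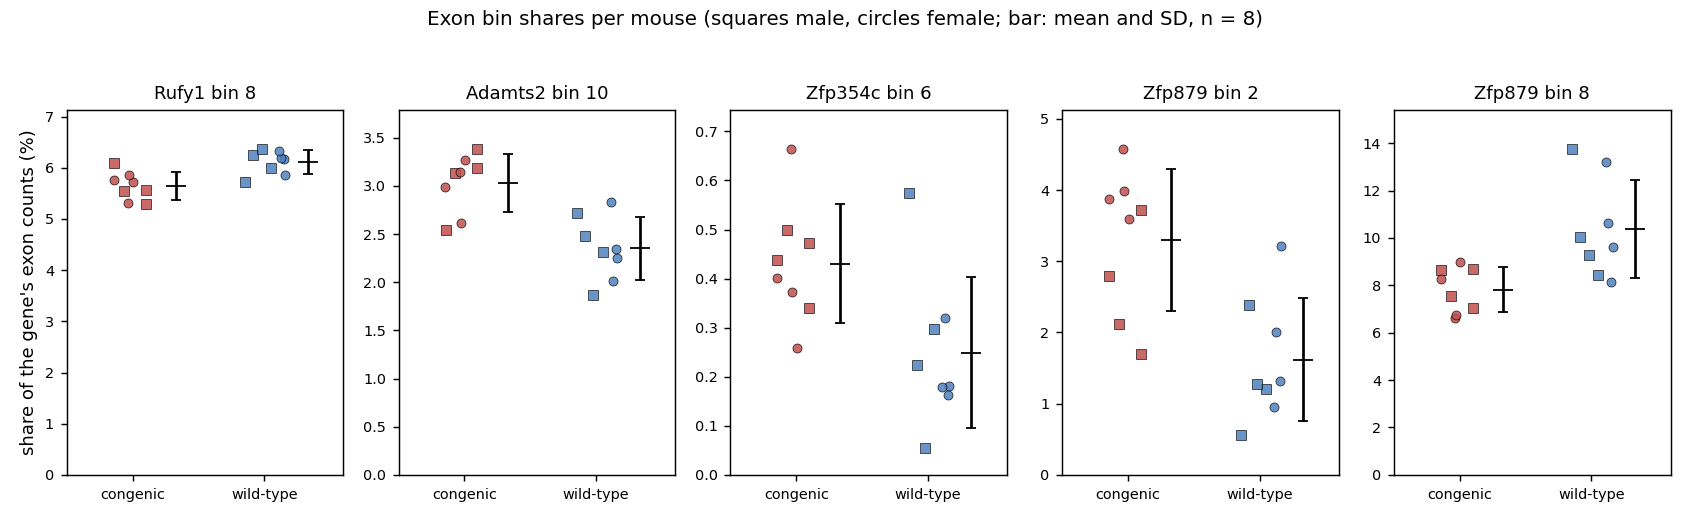
Share of the gene's exon counts in 5 bins per mouse, in percent on linear axes that start at 0, congenic mice left and wild-type mice right (squares, males; circles, females; bars, mean and SD, n = 8). The bins were picked for a small p or after their values were seen, so a shift follows from the choice, and none passed after adjustment. The groups are shifted but overlap in each panel, and the panels for Zfp354c bin 6 and Zfp879 bin 2 rest on 2 to 25 counts per mouse.

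The exon counts had blind spots within the group. Bins 4 and 5 of Ltc4s, coding exons of 82 and 71 bases at chr11:50050519-50050600 and chr11:50050696-50050766, held 0 counts in all 16 mice, although the coding bins on either side held 15 to 39 counts per mouse. Both lie wholly on exons of Gm16641, a long non-coding RNA gene of the other strand. The same was true of all genes: of 427 bins that lie wholly on exons of an opposite gene, 427 held 0 counts in all mice (100%), against 0.265% of 56595 other bins, counting bins of at least 20 bases that are in every transcript of a gene with at least 1000 exon counts. Ltc4s bin 6 lies on exons of the other strand for 39 of its 83 bases. In Sqstm1, 580 of the 786 bases of bin 1 lie on exons of the opposite gene 3010026O09Rik. That bin held 0 to 14 counts per mouse, where the 444 bases of bin 3 held 4416 to 6774. Bin 1 is in 1 of 7 annotated transcripts and bin 3 in 3, so the bins differ in more than the overlap. What lowers the counts of bin 1 was not tested. Exon use cannot be read in stretches that lie on opposite exons. The levels of Ltc4s and Sqstm1 per kilobase above are over lengths that include such stretches.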

How the data were processed

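RNA-seq gene and exon counts were deposited by the authors as raw counts per lane for 16 mice, 48 runs in all. Per the submitters' processing notes, the tools were HTSeq 0.6.1p1, FastQC 0.10.1, limma 3.22.7 and edgeR 3.8.6. Single-end and paired-end reads are both stated in the labels, as are mm9 and mm10. Aligner and strand setting are not given in the sources used here. Exon bins rebuilt from NCBIM37 (mm9) gave the same number of bins for 16249 of 16655 genes (97.6%).

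Lanes were summed per mouse. Genes with enough counts by filterByExpr of edgeR (minimum count 10, minimum total count 15) were scaled by trimmed mean of M values (TMM) and tested by the quasi-likelihood test of edgeR 4.0.16 (R 4.3.3) with genotype and sex, and p-values were adjusted by Benjamini-Hochberg over all genes. Exon use was tested with diffSpliceDGE, whose natural-log coefficients were divided by ln 2, and the SE of a bin is that implied by its p. Permutation tests used all 12870 splits for groups and 100000 resamples for correlations (Python 3.11.15, numpy 2.4.6, pandas 2.3.3).

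Named were the members, Hnrnph1, the 5 window genes and the 2 genes per list of smallest p, the 3 genes most like Rufy1 and Zfp879, and for each member the bin of smallest p and the bin of largest change among those that averaged 50 or more counts. Zfp354c bins 5 and 7, Zfp879 bin 8, and Zfp454, Zfp2 and Zfp354b, were chosen after their values were seen. The members and lists were chosen with earlier results of these data known. Alternatives were DESeq2 1.42.0, voom and diffSplice of limma 3.58.1, other scalings and filters, other covariates, single lanes and leaving out each mouse. Applying them to the lists and to the window was chosen after seeing the data. The scripts were tested on simulated data. Replicate numbers only name mice.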

Additional observations from a re-analysis of the deposited data

Results flagged for a closer look

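Among 24 groups of values examined, 2 held a mouse far from the rest of its group by Dixon's criterion for 8 values, and chance gives about 1 in 20 groups. Tbc1d9b was at 370 CPM in congenic mouse 2, where the other congenic mice were at 272 to 315 CPM, a gap of 0.555 of the range. Ltc4s was at 2.36 CPM in congenic mouse 1, where the other congenic mice were at 2.90 to 3.31 CPM, a gap of 0.57 of the range. Congenic mouse 2 was also the lowest congenic mouse for Sqstm1, Canx, Rufy1 and Adamts2 and the highest for Zfp879 and Zfp354a.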

How the results depend on the processing

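Under the alternatives run, 0 of the 10 genes were called for genotype, sex, their interaction or exon use, and the counts for the window and the pathway lists also stayed at 0. Directions of near-zero genotype fold changes turned in some settings. With the cortical marker score added, Tbc1d9b had -0.030, Rufy1 0.017 and Zfp354c -0.014. With lane 4 alone, Maml1 had 0.0027, Rufy1 0.042 and Zfp354c -0.021. With lane 3 alone, Adamts2 had 0.0047 and Zfp879 bin 8 had 0.024, where lane 4 alone gave -0.87 for that bin. With DESeq2, the sex fold change of Ltc4s was 0.00035. Leaving out 1 mouse gave genotype fold changes of -0.0039 to 0.067 for Tbc1d9b, -0.015 to 0.014 for Rufy1, -0.095 to 0.031 for Adamts2 and -0.00997 to 0.024 for Zfp354c. It gave interactions of -0.039 to 0.094 for Maml1, -0.067 to 0.0063 for Canx and -0.059 to 0.015 for Rufy1, and sex fold changes of -0.048 to 0.048 for Ltc4s and -0.0014 to 0.029 for Rufy1. It moved the number of member pairs past the threshold between 0 and 1. The cause of these turns was not tested. Among the alternative values of single genes and bins, 669 kept direction and side of the threshold and 39 turned. No paired analysis was possible because the replicate numbers only name mice and no label ties a congenic to a wild-type mouse. Counts limit Ltc4s, Zfp879 and Adamts2 most, and bins with 2 to 25 counts per mouse more so.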
